A study of Homo sapiens with 6 samples.

Results

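The 51 genes described here encode a chosen set of the enzymes that add or remove methyl and acetyl groups on histones. They comprise 18 histone lysine methyltransferases, 3 protein arginine methyltransferases, 12 histone demethylases, 8 histone acetyltransferases and 10 histone deacetylases. A cluster, the unit of the deposited lists, is a short stretch of RNA to which cross-linked reads of a library mapped. It was given to a gene when HOMER named that gene as the one with the nearest transcription start and the cluster also lay inside the gene on its strand. Of the 16269 clusters in the 6 libraries, 70 met this rule, and they merged into 44 of 11416 regions, where a region joins clusters of one strand that share 1 nucleotide or more. HOMER named a member gene for 76 clusters, and 6 of these lay outside the gene or on its other strand and were left out. A second placement, by position alone, took every cluster inside a member whatever start was nearest. It added 29 clusters in 21 regions. Values are by the rule unless position alone is named.

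PAR-CLIP marks where a protein touches RNA in living cells, through a uridine analog that ultraviolet light joins to the protein and that is read as C in place of T. HEK293T cells, an established human embryonic kidney line, were transiently transfected with plasmids for myc-tagged hnRNP A1, grown with 4-thiouridine and cross-linked, and the protein was recovered with a rabbit polyclonal antibody against the tag. The 3 groups, with 2 libraries each, were monomeric WT hnRNP A1 (A1), a more slowly migrating WT band that the labels call dimeric and the study calls only possibly so (A1-HMW), and the monomer of a mutant with the R75D and R88D substitutions (A1dm). All 3 came from cells that overexpress the tagged protein, and no deletion of the cells' own hnRNP A1 is named. Replicates 1 and 2 listed 5805 and 8100 clusters for A1, 671 and 865 for A1-HMW, and 232 and 596 for A1dm. The score column of these lists was 0 in every line and no read numbers were used here, so the depth behind a cluster is not given, each cluster counts alike, and a site that a list does not hold may have been missed.

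Histone lysine methyltransferases of the KMT2 and SETD families mark promoters, enhancers and the bodies of transcribed genes, demethylases of the KDM families take such marks off, and acetyltransferases and deacetylases set the acetylation of histone tails. Many of these enzymes are very large proteins spread over long genes with many introns. hnRNP A1 is an abundant nuclear RNA-binding protein that packages nascent transcripts and is best known as a regulator of splice site choice, and intronic RNA is therefore a usual place to find it.

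The member regions found in 3 or more libraries were all purine-rich stretches on the strand of the gene. They are shown as the DNA letters of hg19, 5′ to 3′, because they are the positions that recurred most often in these genes, with the longest uninterrupted run of A and G in capitals.
ASH1L, exon 28, chr1:155307271-155307293, minus strand: agtGGAGAGGGAGAGGAAAGGGt
ASH1L, intron 2, chr1:155472530-155472557, minus strand: AAGGAGAAAGGAAGGAGGAtgagggaat
KMT2C, intron 6, chr7:151992702-151992725, minus strand: tAGGAAGGAAAAAGGGGGAAtgga
KMT2C, intron 6, chr7:151999704-151999731, minus strand: gaatGAAAGAAGGAAAGGGAAAGGAAGc
HDAC8, intron 4, chrX:71735316-71735342, minus strand: gttGAGGGAGGAAGGAAGGGAAGGGGc
HDAC8, intron 7, chrX:71690424-71690443, minus strand: ctGAGAAGAAAGGGAGGGAt
HDAC8, intron 9, chrX:71649977-71650011, minus strand: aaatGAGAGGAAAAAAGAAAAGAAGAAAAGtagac
KDM6A, intron 18, chrX:44930086-44930111, plus strand: AGAAGAGGAAGGAAGAGGtcaggggc
The runs in capitals are 17 to 26 nucleotides long. Each of the 8 sequences holds a T, the base that PAR-CLIP reads, directly at an end of the run. The region in intron 2 of ASH1L was reached by position alone, since the nearest start is that of the antisense gene ASH1L-AS1.

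The A1-HMW and A1dm clusters that no A1 cluster overlapped are shown for contrast, with the same use of capitals.
SETD2, intron 5, A1-HMW, chr3:47152365-47152384, minus strand: tGGGGAAGGGAGGAAAGGAt
KDM6B, exon 24, A1-HMW, chr17:7757018-7757044, plus strand: aaatatGAGGAAAAAAGGAAAAAAAAt
SETD1A, intron 13, A1dm, chr16:30985712-30985732, plus strand: gagtGGGGGGAGAGAAAGGGc
DOT1L, intron 25, A1dm, chr19:2225030-2225063, plus strand: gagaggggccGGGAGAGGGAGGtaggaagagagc
KDM4A, intron 11, A1dm, chr1:44145760-44145781, plus strand: gcaccatGAGAAGGGtgcggat
KDM6B, exon 24, A1dm, chr17:7757959-7757984, plus strand: gctggggctgcGGAGGGGtggggggt
KMT2C, intron 48, A1dm, chr7:151850331-151850351, minus strand: ttctgaccacctgtAGGAAct
EHMT1, intron 1, A1dm, chr9:140551854-140551870, plus strand: gctgtcgcgctcgttAG
Both A1-HMW sequences hold purine runs, of 18 and 20 nucleotides. Of the 6 A1dm sequences, 2 hold a run of at least 12, those of SETD1A and DOT1L, and the run in EHMT1 is 2 nucleotides long. All 5 of the member A1dm regions with an A1 cluster, by both placements, held such a run, as did 96.9% of all A1 regions. A run of at least 12 was present in 62.5% of the 8 member A1dm clusters under the rule and in 60.5% of all A1dm clusters. These 2 shares include clusters that A1 overlaps, so they are not a like comparison for the 6 sequences. The share over all A1dm regions with or without an A1 cluster was not computed, so the contrast cannot be called particular to these genes. SETD1A and KDM6B were reached by position alone.

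Clusters of A1 were found in 20 of the 51 genes (39.2%), against 16.0% of the 20175 protein-coding genes placed by the same rule. For both A1 libraries the numbers were 12 of 51 (23.5%) and 7.95%. The 12 genes were ASH1L, KMT2A, KMT2C, SETD2, SETD5, KDM2A, KDM3B, KDM4C, KDM6A, HDAC7, HDAC8 and SIRT1. The 8 genes with an A1 cluster in 1 library alone were CARM1, EHMT1, HDAC6, KAT6A, KDM4B, KMT2D, KMT2E and SUV39H2. An A1-HMW cluster was present in 6 genes (11.8%, against 3.09% of all protein-coding genes), and ASH1L and HDAC8 had one in both A1-HMW libraries (3.92%, against 0.555%). An A1dm cluster was also present in 6 genes (11.8%, against 2.01%), and KMT2C had one in both A1dm libraries (1.96%, against 0.139%). In KMT2C the A1dm clusters of replicates 1 and 2 lay at different positions. The member genes are longer than others, with a median of 77.1 kb against 27.2 kb, and the 20 with an A1 region were longer (median 131 kb) than the 31 without (52.1 kb). Per length, the members held 39 A1 regions in 6.09 Mb, or 6.4 per Mb (exact Poisson interval 4.55 to 8.75), against 3.50 per Mb in all protein-coding genes and 3.44 in those of at least 10 kb. By position alone there were 57 A1 regions, or 9.36 per Mb (interval 7.09 to 12.1), against 5.09. These intervals cover counting error only, and the lists hold no measure of the RNA level of any gene.

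**Figure D1:**
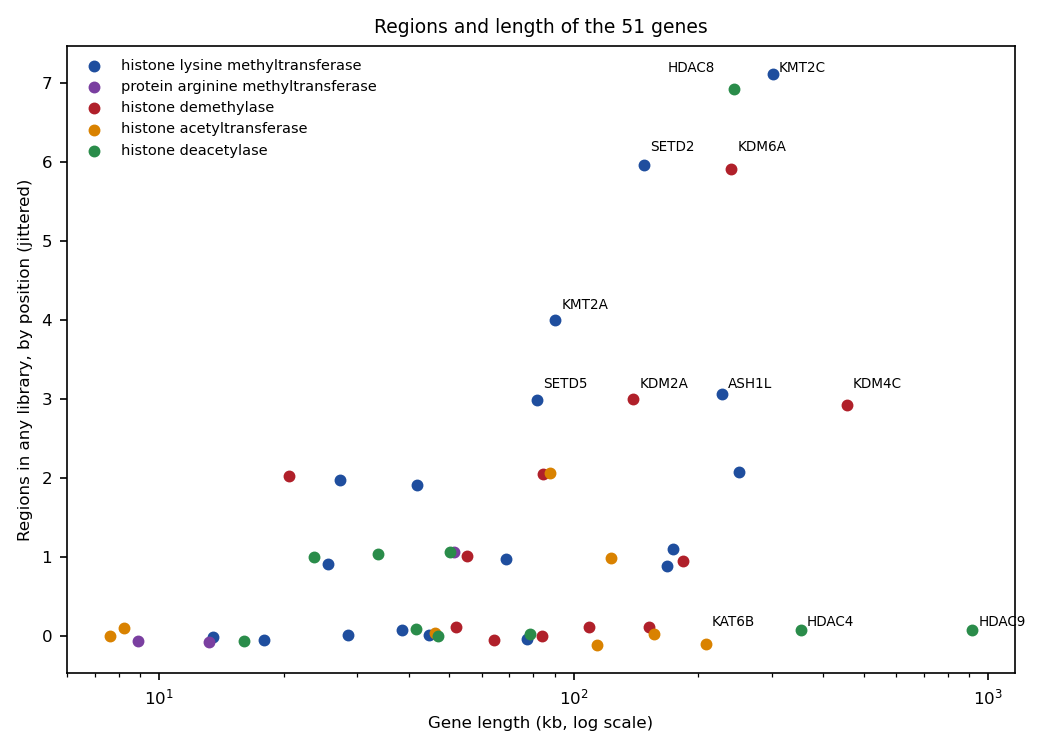
Number of regions in any library, by position alone (vertical axis, with a small random shift so that points do not hide each other), against gene length in kb (horizontal log axis) for each of the 51 genes, colored by enzyme class. KMT2C and HDAC8 reach 7 regions, whereas HDAC9, at 915 kb the longest gene shown, has none.

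The members' clusters made up a small share of each library. Under the rule they numbered 27 of 5805 (0.465%) and 25 of 8100 (0.309%) in the A1 libraries. In the A1-HMW libraries they numbered 5 of 671 (0.745%) and 5 of 865 (0.578%), and in the A1dm libraries 3 of 232 (1.29%) and 5 of 596 (0.839%). The 3 groups did not overlap, with the lowest shares in A1 and the highest in A1dm. The share of all clusters that lay in their nearest-start gene, as the rule requires, had the same order. It was 52.5 and 49.3% in A1, 58.1 and 53.3% in A1-HMW, and 62.9 and 58.2% in A1dm. Whether the order of the member shares follows from this was not tested. The mean member share was 0.387% ± 0.111 (SD, n = 2) in A1. The A1-HMW libraries averaged 0.662% ± 0.118 (SD, n = 2). The A1dm libraries averaged 1.07% ± 0.321 (SD, n = 2). The difference from A1 was 0.275 percentage points for A1-HMW and 0.679 for A1dm, each with p = 0.33 in an exact two-sided permutation test over libraries, which is the smallest value that 2 libraries against 2 can give. The Wilson intervals of single libraries were wide, from 0.441 to 3.73% in A1dm replicate 1 and from 0.319 to 1.73% in A1-HMW replicate 1, and they overlapped those of A1, which reached from 0.209 to 0.676%. By position alone the members held 34 and 41 A1 clusters (0.586 and 0.506%), 6 and 7 A1-HMW clusters (0.894 and 0.809%), and 4 and 7 A1dm clusters (1.72 and 1.17%), in the same order of groups.

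**Figure D2:**
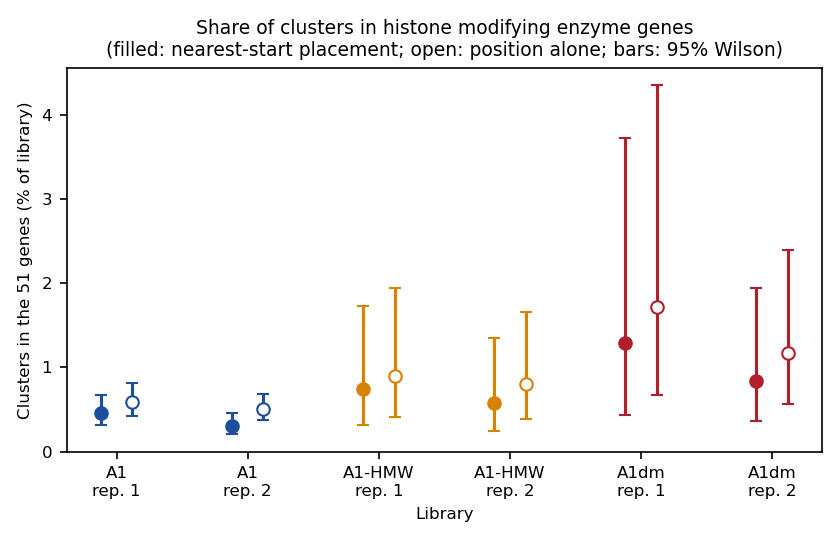
Share of each library's clusters that lay in the 51 genes (vertical axis, percent) for the 6 libraries (horizontal axis), by the nearest-start rule (filled points) and by position alone (open points), with 95% Wilson intervals as bars. The A1 points lie lowest, between 0.309 and 0.586%, and the intervals of the A1dm libraries are the widest.

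The lysine methyltransferases held most of the sites. Of the 44 regions under the rule, 24 lay in 10 of the 18 lysine methyltransferase genes, 11 in 6 of the 12 demethylase genes, 7 in 4 of the 10 deacetylase genes, 1 in CARM1 among the 3 arginine methyltransferases and 1 in KAT6A among the 8 acetyltransferases. Per Mb of gene, the lysine methyltransferases carried 10.9 A1 regions (exact Poisson interval 6.69 to 16.9), the demethylases 6.10 (2.92 to 11.2), the deacetylases 3.88 (1.56 to 8.0) and the acetyltransferases 1.33 (0.0338 to 7.43). The arginine methyltransferases had 13.6 (0.344 to 75.6), from the 1 region of CARM1. Of the 1.8 Mb of the deacetylases, 915 kb were those of HDAC9, which held no cluster. The order of the classes without that gene was not computed. The intervals of all classes overlapped one another, those of the lysine methyltransferases and the acetyltransferases included. By position alone the counts were 33 regions in lysine methyltransferases, 18 in demethylases, 10 in deacetylases, 1 in CARM1 and 3 in acetyltransferases. The 9 genes with 3 or more regions held 42 of the 65 regions of both placements. These genes were picked by their number of regions, and the same share over all protein-coding genes was not computed. No cluster by either placement was found in 25 genes, among them both Polycomb methyltransferases EZH1 and EZH2, the coactivator CREBBP, and the class I deacetylases HDAC1, HDAC2 and HDAC3. The 25 included long genes, HDAC9 (915 kb), HDAC4 (353 kb), KAT6B (208 kb) and CREBBP (156 kb), although their median length was 47.0 kb, against 89.0 kb for the genes with a region.

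Among the lysine methyltransferases, the site in ASH1L was seen in the most libraries. ASH1L encodes a SET domain enzyme that acts on histone H3 and opposes Polycomb silencing. Its region in the 3′ untranslated part of exon 28 of 28 held a cluster in both A1 libraries, both A1-HMW libraries and A1dm replicate 2, and was absent from the list of A1dm replicate 1. The region in intron 2, 18334 nucleotides from the nearest canonical exon, held clusters in both A1 libraries, A1-HMW replicate 2 and A1dm replicate 2. A further region of ASH1L, in intron 4, was seen in A1 replicate 1. Both recurrent regions thus carried clusters of all 3 groups, and A1dm replicate 1, the list with fewest clusters, lacked both.

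KMT2C, which encodes a very large methyltransferase of enhancer-associated complexes, held 3 and 2 A1 clusters, 1 and 0 A1-HMW clusters, and 2 and 1 A1dm clusters in replicates 1 and 2. Of its regions, 3 lay in intron 6. The most downstream of them was seen in A1 replicate 1, A1-HMW replicate 1 and A1dm replicate 1, and the next in both A1 libraries and A1dm replicate 2. The third, on chromosome 7 from 152003477 to 152003502, was seen in A1 replicate 2. The cluster in intron 48 was seen in A1dm replicate 1 alone. It lay 292 nucleotides from the nearest exon of the canonical transcript and inside an exon of another transcript. A further 3 regions, 1 by the rule and 2 by position, lay in intron 1 and were each seen in 1 A1 library. KMT2C was therefore the member with most A1dm clusters.

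KMT2A, the founding member of the same family and a frequent target of leukemia translocations, held 2 and 3 A1 clusters and 1 cluster in A1dm replicate 2. The A1dm cluster lay in intron 16 on chromosome 11 from 118364931 to 118364948, 55 nucleotides from an exon, and overlapped a cluster of A1 replicate 1. That was the member intronic region closest to an exon of the canonical transcript. The region of intron 30, from 118381966 to 118381997, was seen in both A1 libraries, and those of intron 1 in replicate 2. No A1-HMW cluster was found in KMT2A.

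SETD2 encodes the enzyme that trimethylates histone H3 along transcribed gene bodies. It held 1 and 4 A1 clusters and 1 cluster in A1-HMW replicate 1, with 5 regions by the rule and 1 more by position. The region in intron 1, on chromosome 3 from 47202902 to 47202925, was seen in both A1 libraries, and the others were each seen in 1 library. The A1-HMW cluster, in intron 5, was overlapped by none of the A1 clusters. SETD5 encodes a SET domain protein whose enzyme activity is debated, and it held 3 and 1 A1 clusters and none of the other groups. Its region in intron 3, from 9470852 to 9470883 on chromosome 3, was seen in both A1 libraries. It lay 159 nucleotides from the nearest canonical exon and inside an exon of another transcript. Of its other regions, 1 lay in coding exon 13 of 23 and 1 in intron 1, both in replicate 1. EHMT1, a methyltransferase of silent chromatin, and DOT1L, a methyltransferase without a SET domain, each held 1 cluster in A1dm replicate 2, and EHMT1 also 1 in A1 replicate 2, at another position of its intron 1. SETD1A held by position a region in both A1 libraries in intron 13 and, in the same intron, the cluster of A1dm replicate 1 shown above.

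Among the demethylases, KDM6A held the most regions, 6, when those placed by position were included, and KDM2A the most by the rule, 3 against 2 in KDM6A. KDM6A and KDM6B encode the demethylases that remove the Polycomb mark. KDM6A held 2 clusters in each A1 library and 1 in A1-HMW replicate 1 under the rule. The region in intron 18 was seen in both A1 libraries and A1-HMW replicate 1. It lay 484 nucleotides from the nearest canonical exon and inside an exon of another transcript. The region in intron 27, from 44954641 to 44954664 on chromosome X, was seen in both A1 libraries. By position alone, 4 more regions lay in introns 2 and 3, for which HOMER named the small RNA pseudogene RNU6-523P. One of these, from 44825936 in intron 3, was seen in both A1 libraries. In KDM6B both clusters lay in the 3′ untranslated part of the last exon, 1 in A1-HMW replicate 1 and 1 in A1dm replicate 2, and TMEM88 had the nearest start.

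KDM2A, a demethylase that binds CpG islands, held 2 and 1 A1 clusters and 1 in A1-HMW replicate 2, which overlapped a cluster of A1 replicate 1 in intron 2, from 66899551 to 66899572 on chromosome 11. The other 2 regions of KDM2A were seen in 1 A1 library each, so the gene had A1 clusters in both libraries but no region in both. The same was true of KDM3B, with 1 cluster per A1 library. KDM4C held 2 and 1 A1 clusters. The region seen in both, from 6724060 to 6724084 on chromosome 9, lay inside the annotated gene but at -33.9 kb from the start of the canonical transcript, that is, upstream of it, and a region in intron 4 was seen in both by position. KDM4A held 1 cluster, in A1dm replicate 1, and KDM4B 1, in A1 replicate 1. The only acetyltransferase regions were 1 in coding exon 14 of KAT6A, in A1 replicate 2, and by position 2 in introns of EP300, of which that in intron 6 was seen in both A1 libraries.

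HDAC8, a class I deacetylase known for acting on cohesin, carried more A1-HMW clusters than any other of the 51 genes. It held 4 and 3 A1 clusters, 1 and 3 A1-HMW clusters and no A1dm cluster under the rule. The regions in introns 7 and 9 were each seen in both A1 libraries and A1-HMW replicate 2. The region of intron 4 shown above was seen in A1 replicate 1 and both A1-HMW libraries, and a second region of intron 4, from 71749766 to 71749789, in both A1 libraries. Of the 3 regions added by position, in introns 9 and 10, that from 71557401 in intron 10 was seen in A1 replicate 2 and A1-HMW replicate 2. HDAC8 thus had 4 of its 7 regions in A1-HMW, each at a position also held by A1. HDAC7, a class IIa deacetylase, and SIRT1, an NAD-dependent deacetylase, each had 1 region, seen in both A1 libraries, in intron 1 from 48201061 to 48201084 on chromosome 12 and in intron 7 from 69670639 to 69670665 on chromosome 10. HDAC6, a mostly cytoplasmic deacetylase, had 1 cluster in A1 replicate 1.

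**Figure D3:**
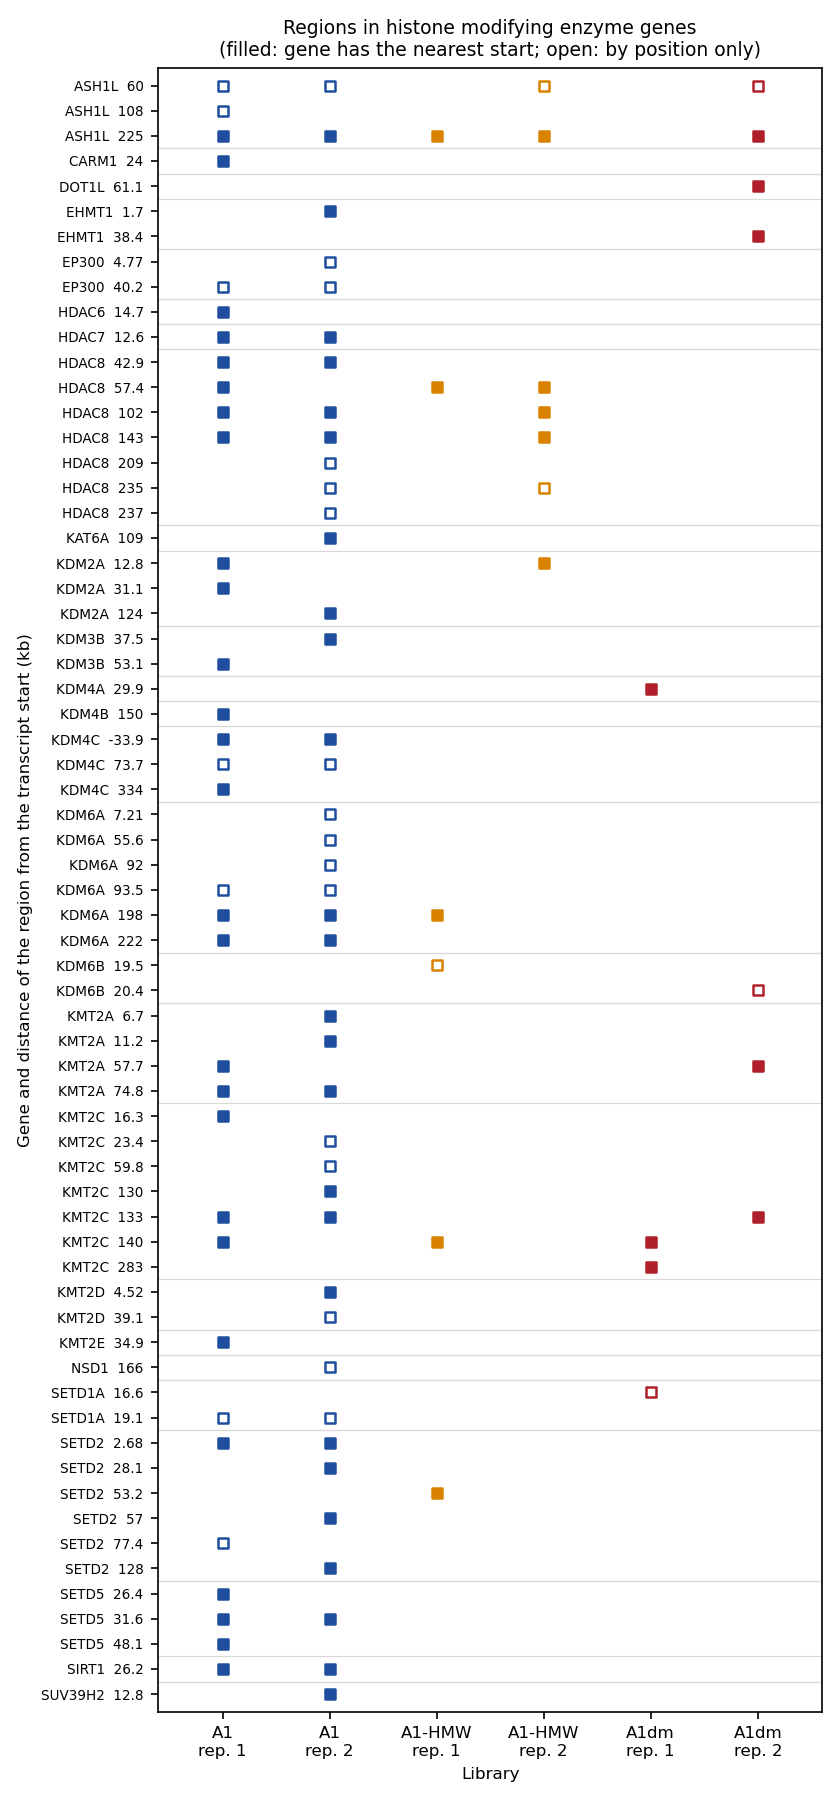
Presence (a square) of each of the 65 member regions (rows, named by gene and by distance in kb from the start of the canonical transcript) in each library (columns), filled where the gene also had the nearest start and open where the region was placed by position alone. Most rows have squares in the A1 columns alone, and the row of ASH1L at 225 kb has 5.

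**Figure D4:**
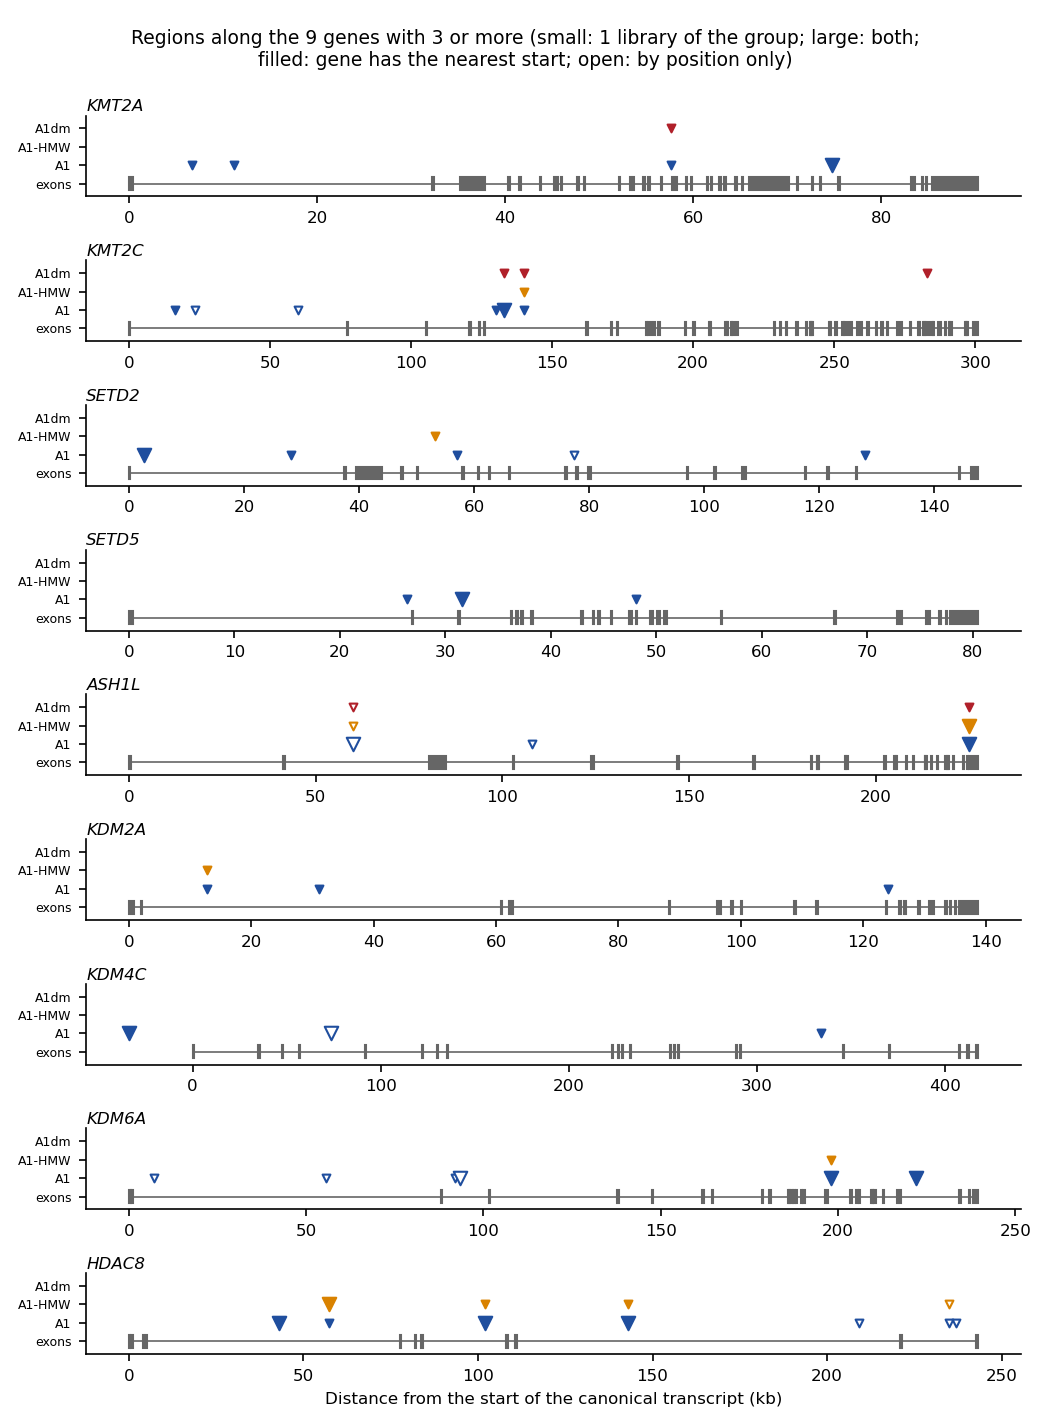
Positions of the regions along the 9 genes with 3 or more, in kb from the start of the canonical transcript, with exons as boxes and a triangle for each group that held the region. Small triangles stand for 1 library and large ones for both, open ones were placed by position alone, and those of HDAC8 lie in its long introns while that of ASH1L at 225 kb lies in the last exon.

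Most member sites were seen in a single library. Of the 44 regions under the rule, 27 were seen in 1 library, 10 in 2, 6 in 3 and 1 in 5. In A1 alone 30 were found, in A1 and A1-HMW 5, in A1 and A1dm 2, in all 3 groups 2, in A1-HMW alone 1 and in A1dm alone 4. The same counts were not made for all 11416 regions, so these describe the members only. Of the 39 member A1 regions, 13 (33.3%, Wilson interval 20.6 to 49.0%) were seen in both A1 libraries, close to the 31.5% of all 10574 A1 regions and the 35.8% of the 4834 that lay in protein-coding genes by the same rule. By position alone this was 18 of 57 (31.6%).

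A1-HMW clusters lay on 7 of the 39 member A1 regions (17.9%, interval 8.98 to 32.7%), against 9.01% of all A1 regions and 10.6% of those in protein-coding genes. The 7 were in HDAC8, which had 3, and in ASH1L, KDM2A, KDM6A and KMT2C. A1dm clusters lay on 4 (10.3%, interval 4.06 to 23.6%), against 3.59% of all A1 regions and 4.74% of those in protein-coding genes. The 4 were in KMT2C, which had 2, and in ASH1L and KMT2A. Without A1dm replicate 2, 1 member region was covered by A1dm (2.56%). Of the member A1 regions seen in both A1 libraries, 4 of 13 (30.8%) carried an A1-HMW cluster and 2 of 13 (15.4%) an A1dm cluster, against 20.0 and 7.60% of all such A1 regions. Of those seen in 1 A1 library, 3 of 26 (11.5%, interval 4.00 to 29.0%) and 2 of 26 (7.69%, interval 2.14 to 24.1%) did, against 3.97 and 1.75%. For A1 regions in protein-coding genes the shares were 21.6 and 9.42% in both A1 libraries, and 4.48 and 2.13% in 1. The A1-HMW interval from 4.00% held 4.48%, and the A1dm interval from 2.14% began at about 2.13%. By position alone, A1-HMW lay on 9 of 57 (15.8%) and A1dm on 5 of 57 (8.77%, interval 3.81 to 18.9%). Seen from the other side, 7 of the 8 member A1-HMW regions were overlapped by A1 (87.5%, interval 52.9 to 97.8%), against 68.1% of all A1-HMW regions, and 4 of the 8 member A1dm regions (50%, interval 21.5 to 78.5%), against 47.9%. Under the rule, the interval for A1dm on member A1 regions began above the share of all A1 regions and below that of protein-coding genes, and the interval for A1-HMW held both shares. These intervals cover counting error over regions, and the 2 libraries of a group allow no test of the difference that could pass a threshold.

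The member sites were mostly intronic. In the canonical transcript, 40 of the 44 regions lay in an intron, 2 in a coding exon (KAT6A and SETD5), 1 in a 3′ untranslated region (ASH1L) and 1, of KDM4C, upstream of the transcript. Of the 39 A1 regions, 92.3% lay outside the exons of the canonical transcript, against 90.6% of A1 regions in protein-coding genes. This count includes the KDM4C region upstream of the transcript. The share outside the exons of any transcript, taken here as the intronic share, was 76.9% (30 of 39, interval 61.7 to 87.4%), against 83.6%. A total of 7 of the 44, in HDAC6, KDM2A, KDM4B, KDM6A, KMT2A, KMT2C and SETD5, lay in an exon of another transcript than the canonical one. The 40 regions in canonical introns, with these 7 included, lay at a median of 4053 nucleotides from the nearest exon of the canonical transcript. The range was from 55 to 38353. Distances to exons of other transcripts were not measured. The 39 distinct intronic A1 clusters of the members lay at a median of 5004 nucleotides, against 2086 for the 4647 of all protein-coding genes. The member genes are longer, with a median of 77.1 kb against 27.2 kb, and distances were not scaled to intron length. Of the 39, 4 lay within 300 nucleotides of a canonical exon (10.3%, against 13.9%) and 10 in the first intron (25.6%, against 29.0%). Of the 21 regions added by position, 17 were intronic and 4 lay in 3′ untranslated regions, 2 in KDM6B and 1 each in KMT2D and NSD1. Each of the 65 regions was the only copy in the genome when 25 nucleotides on each side were included. The cluster sequence alone was unique for 41 of the 44, with the 12-nucleotide cluster of KAT6A the least so at 8648 copies. Gene models without a symbol overlapped 10 of the 44 regions on the same strand, including all 4 of HDAC8 and that of KDM4A.

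The member clusters were rich in purines, as were all clusters of their libraries. A and G made up 91.5 and 90.3% of the bases of the member clusters in A1 replicates 1 and 2, against 90.7% of all clusters in both. In A1-HMW they made up 90.4 and 90.8%, against 87.4 and 88.2%. In A1dm they made up 68.3% of the 3 member clusters of replicate 1, against 81.6%, and 84.2% of the 5 of replicate 2, against 78.5%, so the A1dm replicates departed from their libraries in opposite directions. A run of 12 purines was present in 36 of the 39 member A1 regions (92.3%, interval 79.7 to 97.3%), against 96.9% of all A1 regions. It was present in all 10 member A1-HMW clusters, against 85.9% of all A1-HMW clusters. In the member A1dm clusters it was present in 33.3% of those of replicate 1, against 67.0% of that library, and in 80% of those of replicate 2, against 58.1%. The word GAGGAA, chosen from earlier results of these data and searched on the strand of the cluster, was present in 20 of the 52 member A1 clusters (38.5%, against 33.5%), 7 of the 10 A1-HMW clusters (70.0%, against 32.5%) and 2 of the 8 A1dm clusters (25%, against 21.2%). The 7 A1-HMW clusters came from 5 regions, of which that of ASH1L and that of HDAC8 in intron 4 counted in both libraries, so they are not independent. The word TAG, part of the motif for which hnRNP A1 is known, was present in 7 member A1 clusters (13.5%, against 8.94%), 1 A1-HMW cluster (10%, against 9.39%) and 3 A1dm clusters (37.5%, against 13.6%). The A1dm clusters with TAG were those of DOT1L, EHMT1 and KMT2C at intron 48 and none of them coincided with A1.

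The purine-rich stretch was as short in the members as elsewhere. In windows of 10 nucleotides, purines made up 96.4% at the center of the member A1 clusters and 97.8% at the center of all A1 clusters. At 10 nucleotides from the center they made up 78.2 and 77.3% upstream and downstream, against 77.9 and 78.6%, and farther out both profiles lay near the level of the flanking RNA.

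**Figure D5:**
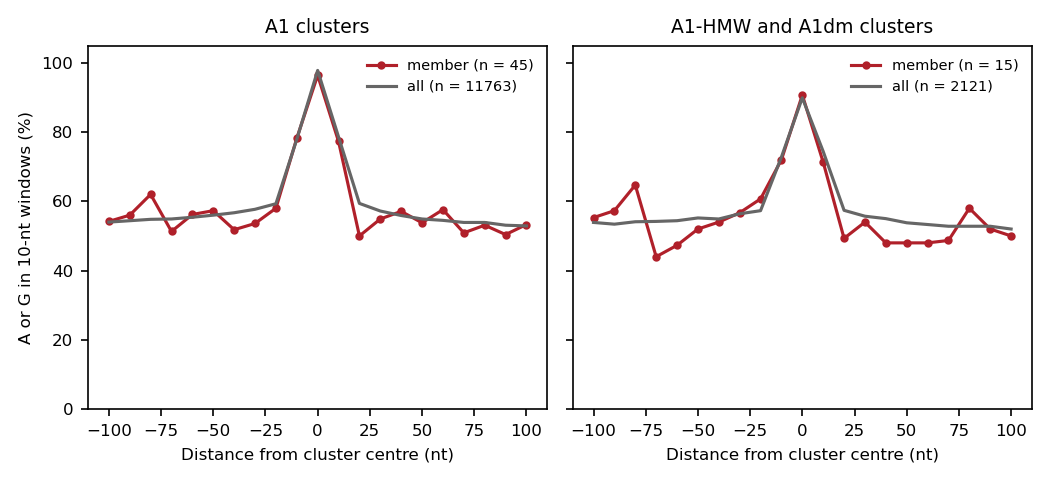
Share of A and G in windows of 10 nucleotides (vertical axis, percent) against distance from the cluster center in nucleotides (horizontal axis), for clusters in the 51 genes (red, clusters at the same position counted once) and for all clusters (gray). Both lines peak at the center, at 96.4% for members and 97.8% for all in the A1 panel, and fall within about 20 nucleotides on either side.

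Further genes of the same pathway, placed by the same rule, were also hit by A1 in larger shares than all protein-coding genes. These shares of genes take no account of gene length, and values per Mb are given for A1 alone. Of 40 further histone modifying enzymes, 13 had a cluster in either A1 library (32.5%, against 16.0% of all protein-coding genes and 39.2% of the members) and 6 in both (15%, against 7.95%), with 20 A1 regions or 5.82 per Mb. NSD3 had the one A1-HMW cluster among them (2.5% of the genes, against 3.09%), and KDM5C and PHF8 each had 1 A1dm cluster (5%, against 2.01%). Of 59 subunits of the complexes in which these enzymes work, 18 had a cluster in either A1 library (30.5%) and 7 in both (11.9%), with 22 A1 regions or 4.27 per Mb. A1-HMW clusters were found in ATF7IP, EPC1, ING1, MTA2, RBBP4 and TRRAP (10.2% of the subunits, against 3.09% of all protein-coding genes and 11.8% of the members). RBBP4, a histone-binding subunit shared by several complexes, had them in both libraries. The subunits held 0.298% of the clusters of A1-HMW replicate 1, against 0.745% for the members. In A1-HMW replicate 2 the order was the opposite, 0.694% against 0.578%. EPC2 had the one A1dm cluster (1.69%, against 2.01%). The density of A1 regions was 6.4 per Mb in the members, 5.82 in the further enzymes, 4.27 in the subunits and 3.50 in all protein-coding genes. The interval of the members, 4.55 to 8.75, held the value of the further enzymes and began just above that of the subunits. No interval was computed for the further enzymes or the subunits, so a difference of the subunits from the members or from all genes was not tested.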

How the data were processed

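The 6 PAR-CLIP libraries, 2 independent experiments for each of A1, A1-HMW and A1dm, were grouped by their titles. According to the methods, the authors trimmed reads with BBduk, removed ribosomal RNA, mapped with STAR and used wavClusteR and PARalyzer. The submitters' processing notes name Bowtie and hg19. The deposited lists are wavClusteR clusters of each library, annotated by HOMER with Ensembl release 87 genes, per the file headers. The remaining tool versions are not given in the sources used here. In each of the deposited lists the score was 0 on all lines, so they allowed no test of read counts. The read numbers in the paper's own cluster table were not used here.

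The cluster start was taken from its identifier, 1 nucleotide before the listed start in 100% of lines. With it every cluster with a reference sequence held a T, against 94.7 to 98.0% as listed. HOMER's nearest-start gene contained the cluster in 49.3 to 62.9% of the clusters of a library. Clusters were placed on GENCODE release 44 lifted to hg19 with Python 3.11.15 and pandas 2.3.3, and the overlap code was tested on simulated data. Sequences are those of the hg19 reference. Intervals are 95% Wilson or exact Poisson and cover counting error only. Shares of libraries were compared by exact permutation tests. Genes described singly were those with a region in both A1 libraries, any A1-HMW or A1dm cluster, or 3 or more A1 regions, and the others are given by counts and names. Sequences were shown for regions in 3 or more libraries, A1-HMW or A1dm clusters without an A1 cluster, and exonic regions in both A1 libraries. The members, lists and tests were chosen with earlier results of these data known. The alternatives were position alone, the gene name alone, the listed start, overlap by 50%, other purine runs, replicate blocks and leaving out each library. For the shares of libraries, clusters inside genes also served as the denominator.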

Additional observations from a re-analysis of the deposited data

How the results depend on the processing

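The share in A1-HMW minus that in A1 kept its sign, from 0.191 to 0.358 percentage points with each library left out, and the share in A1dm minus that in A1 went from 0.452 to 0.906. With only the clusters inside genes as the denominator, the differences were 0.315 points for A1-HMW and 0.807 for A1dm. With the replicate number as a block, as same-numbered libraries may share an experiment, the mean paired differences were again 0.275 and 0.679 points (0.280 and 0.269 for A1-HMW, 0.828 and 0.530 for A1dm in replicates 1 and 2), with p = 0.5 in an exact sign-flip test, the smallest that 2 pairs can give. The number of member A1 regions, 39 from both libraries, was 25 to 27 from either alone, by construction of fewer clusters. Leaving out each library, A1-HMW covered 10.3 to 25.9% of the member A1 regions, and A1dm 2.56 to 14.8%, the lowest without A1dm replicate 2. The intronic share then went from 76.0 to 77.8% and the share with a run of 12 purines from 92.0 to 96.3%. Judged on the exons of the canonical transcript alone, an alternative chosen after seeing the data, 92.3% of the member A1 regions lay outside exons. That share counts the KDM4C region upstream of the transcript. It lay above the share in protein-coding genes (90.6%) rather than below it (76.9 against 83.6%), and its interval, 79.7 to 97.3%, held 90.6%. A run of 8 purines was present in 97.4% of the regions, and a run of 12 in 100% of those seen in both A1 libraries. The intronic share by gene name alone was not run, since clusters outside the gene have no intron in it, nor was recurrence with an A1 library left out, since it needs both. The lists used here give no depth, which limits every statement on a missing cluster.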

Other observations

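The 6 clusters for which HOMER named a member but which did not lie in it on its strand were all from A1 libraries. In KDM2B, which encodes a CpG island demethylase, 1 cluster of each A1 library lay within the span of the gene but on the other strand, on chromosome 12 from 121874450 to 121874479 in replicate 1 and from 121881559 to 121881580 in replicate 2, where no annotated gene runs on that strand. In NSD1 a cluster of A1 replicate 2 likewise lay on the other strand without an annotated gene there. The cluster named for HDAC5 lay on the strand of G6PC3, that for EZH2 in CUL1, outside EZH2, and that for HDAC2 outside the gene in no annotated gene.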
